A study of Mus musculus with 10 samples.

Results

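The 9 genes Mpo, Elane, Prtn3, Ctsg, Ms4a3, Cst7, Igsf6, Nkg7 and Srgn were taken by name from a table of 55359 genes, as genes of the primary granules of neutrophils and of the precursors that make them. All 9 were in the table and all 9 passed the filter on low values. Their levels were measured by RNA-seq in lineage-negative (Lin-) bone marrow cells of mice, which a depletion kit leaves after cells with markers of mature blood lineages are removed. There were 5 libraries of Dhx9f/f mice (WT) and 5 of Dhx9f/f;MX1 mice (cKO, whose genotype the labels give as Dhx9 knock down). Both groups carry the floxed Dhx9 allele, and cKO mice also carry Cre under the Mx1 promoter, which interferon switches on in many tissues. The study's general methods give poly(I:C), a synthetic double-stranded RNA that sets off interferon, to MX1-Cre mice. The sources used here do not say whether the sequenced WT mice received it or how old the mice were.

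Primary (azurophil) granules are the first granules of the neutrophil lineage and are filled at the promyelocyte stage. Their cargo genes are switched on in granulocyte-monocyte progenitors and promyelocytes and are switched off before the cell matures, when the genes of secondary and tertiary granules follow. The cargo includes a peroxidase and a family of serine proteases, which are held by the proteoglycan serglycin and act on engulfed microbes. The transcription factors PU.1, C/EBP, RUNX1 with its partner CBFB, and MYB are known to act at such genes.

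The labels were checked on Dhx9. Dhx9 was at 139.9 ± 12.0 FPKM across the cKO-labelled libraries and at 69.7 ± 2.84 FPKM in WT (SD, n = 5 each), so it was higher where the label says the opposite (log2 fold change 1.0, adjusted p = 1.39e-05, limma with Benjamini-Hochberg adjustment). FPKM, which are fragments scaled to gene length and library depth, carry no information on which exons gave the fragments. Libraries are therefore named by their labels, and each direction below rests on those labels. Depth was 13836936 to 17191095 fragments in the libraries labelled cKO and 15037417 to 18710625 in WT. The lowest value of any of the 9 genes was 2.35 FPKM, and the fewest fragments behind a value were about 86.4, for Nkg7. Xist was at 99.19 to 127.76 FPKM in 3 WT libraries (numbers 3 to 5) and never above 0.09 FPKM elsewhere, so the groups also differ in a sex-linked transcript.

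The 9 genes lie on 6 chromosomes of GRCm39, and Prtn3 and Elane are neighbours on chromosome 10 with 3073 bp between them. To show what lies in front of the genes, the 250 bases before the start of the canonical transcript are printed for the 4 genes of the granule enzymes and for Cst7 and Srgn, whose levels differed least between the groups. Each reads 5′ to 3′ on the gene's strand. Capitals mark every match, on either strand, to the core letters GAGGAA (PU.1), TGTGGT (RUNX), TTNNGNAA (C/EBP) and TAACNG (MYB).
Mpo (chr11:87684157-87684406, plus strand): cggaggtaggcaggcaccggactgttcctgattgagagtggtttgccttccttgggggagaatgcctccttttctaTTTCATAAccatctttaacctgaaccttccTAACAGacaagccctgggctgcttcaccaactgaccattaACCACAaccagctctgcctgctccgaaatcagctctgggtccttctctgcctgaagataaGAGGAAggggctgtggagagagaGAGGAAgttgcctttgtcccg
Elane (chr10:79721831-79722080, plus strand): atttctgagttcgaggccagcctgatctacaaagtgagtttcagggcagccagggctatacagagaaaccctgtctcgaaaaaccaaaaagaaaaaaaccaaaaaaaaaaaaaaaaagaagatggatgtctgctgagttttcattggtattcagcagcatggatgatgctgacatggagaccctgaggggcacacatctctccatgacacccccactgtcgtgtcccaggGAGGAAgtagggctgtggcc
Prtn3 (chr10:79715198-79715447, plus strand): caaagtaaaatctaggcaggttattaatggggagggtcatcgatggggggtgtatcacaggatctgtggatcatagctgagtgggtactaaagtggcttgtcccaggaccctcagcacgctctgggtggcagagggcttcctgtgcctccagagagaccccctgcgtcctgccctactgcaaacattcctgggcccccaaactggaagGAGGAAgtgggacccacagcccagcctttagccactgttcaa
Ctsg (chr14:56340032-56340281, minus strand): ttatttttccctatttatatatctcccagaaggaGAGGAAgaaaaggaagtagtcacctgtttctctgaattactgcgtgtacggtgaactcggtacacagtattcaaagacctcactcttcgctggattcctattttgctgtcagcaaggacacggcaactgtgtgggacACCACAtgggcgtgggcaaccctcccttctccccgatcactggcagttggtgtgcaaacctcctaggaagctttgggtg
Cst7 (chr2:150412034-150412283, plus strand): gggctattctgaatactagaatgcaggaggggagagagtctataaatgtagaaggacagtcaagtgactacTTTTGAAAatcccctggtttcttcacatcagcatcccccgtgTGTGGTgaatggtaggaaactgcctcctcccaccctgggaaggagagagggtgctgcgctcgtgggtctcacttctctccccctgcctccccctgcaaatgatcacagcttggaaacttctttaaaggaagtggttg
Srgn (chr10:62343589-62343838, minus strand): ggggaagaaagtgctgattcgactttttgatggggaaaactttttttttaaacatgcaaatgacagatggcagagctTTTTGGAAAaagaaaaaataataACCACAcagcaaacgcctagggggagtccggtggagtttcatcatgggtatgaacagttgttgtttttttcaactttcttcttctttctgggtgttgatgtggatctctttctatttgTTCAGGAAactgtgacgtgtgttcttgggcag
GAGGAA was present in front of Mpo, Elane, Prtn3 and Ctsg and of none of the other 5 genes, and in 22.9% of 21770 such regions across the genome. The genes without it include Igsf6 and Nkg7, which are not printed. Their log2 fold changes (-2.97 and -2.65) lay among those of the 4 enzyme genes. In front of Mpo, GAGGAA was found at 2 places, 44 to 39 and 21 to 16 bases before the start. It lay 20 to 15 bases before the start of Elane and 42 to 37 bases before that of Prtn3, while in Ctsg it lay farther away, at 216 to 211 bases. TGTGGT was present in front of 5 of the 9 genes (13.02% of all regions), TTNNGNAA in front of 5 (36.9%) and TAACNG in front of 3 (19.6%). A match of so few letters is a description of the sequence and not a binding site. The window of Prtn3 and that of Srgn lie inside the annotated span of the gene, since other transcripts start further upstream.

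Myeloperoxidase, the peroxidase of the granule, is encoded by Mpo (ENSMUSG00000009350, chromosome 11 from 87684407 to 87695239, plus strand). Mpo was at 1136.27, 1064.43, 973.78, 1287.41 and 1345.98 FPKM in the 5 WT libraries, in the order of their numbers, and at 277.33, 51.75, 186.27, 49.43 and 391.92 FPKM across the cKO-labelled libraries 1 to 5. All 5 libraries labelled cKO were below all 5 WT libraries, and numbers 2 and 4 stood far below numbers 1, 3 and 5. The log2 fold change of Mpo was -3.05 (SE 0.539, 95% interval -4.24 to -1.86, adjusted p = 0.00103, limma with Benjamini-Hochberg adjustment over 18742 genes), which is 8.29-fold lower. Mpo is overlapped on the other strand by the long noncoding RNA gene Gm11505, and fragments of the pair cannot be told apart where counting does not use strand.

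Neutrophil elastase is encoded by Elane (ENSMUSG00000020125, chromosome 10 from 79722081 to 79724051, plus strand). Elane was at 875.85, 676.58, 737.48, 842.04 and 998.51 FPKM in WT and at 183.65, 27.73, 103.4, 30.15 and 247.11 FPKM across the cKO-labelled libraries. Its log2 fold change of -3.30 was the lowest of the 9 genes (SE 0.569, 95% interval -4.56 to -2.05, limma adjusted p = 8.93e-04), though its interval overlaps those of all the other genes except Cst7 and Srgn. Proteinase 3, the protease next to elastase, is encoded by Prtn3 (ENSMUSG00000057729, chromosome 10 from 79710310 to 79719008, plus strand). Prtn3 was at 400.03, 330.24, 331.52, 435.22 and 443.29 FPKM in WT and at 120.57, 16.16, 80.83, 14.04 and 153.01 FPKM across the cKO-labelled libraries. Its log2 fold change was -2.92 (SE 0.634, limma adjusted p = 0.00346), and the highest library labelled cKO was 10.9 times the lowest, against 1.34 times in WT. The annotated span of Prtn3 overlaps Plppr3 on the opposite strand.

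Cathepsin G, a protease of a different chromosomal cluster, is encoded by Ctsg (ENSMUSG00000040314, chromosome 14 from 56337338 to 56340031, minus strand). Ctsg was at 748.41, 520.26, 516.52, 681.6 and 692.99 FPKM in WT and at 276.64, 43.64, 144.46, 39.68 and 221.89 FPKM across the cKO-labelled libraries. Here library 1 and not library 5 was the highest of those labelled cKO, and the log2 fold change was -2.52 (SE 0.516, limma adjusted p = 0.00244). Across the 4 enzyme genes, the mean level in the libraries labelled cKO was 14.3% to 22.99% of the WT mean.

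**Figure D1:**
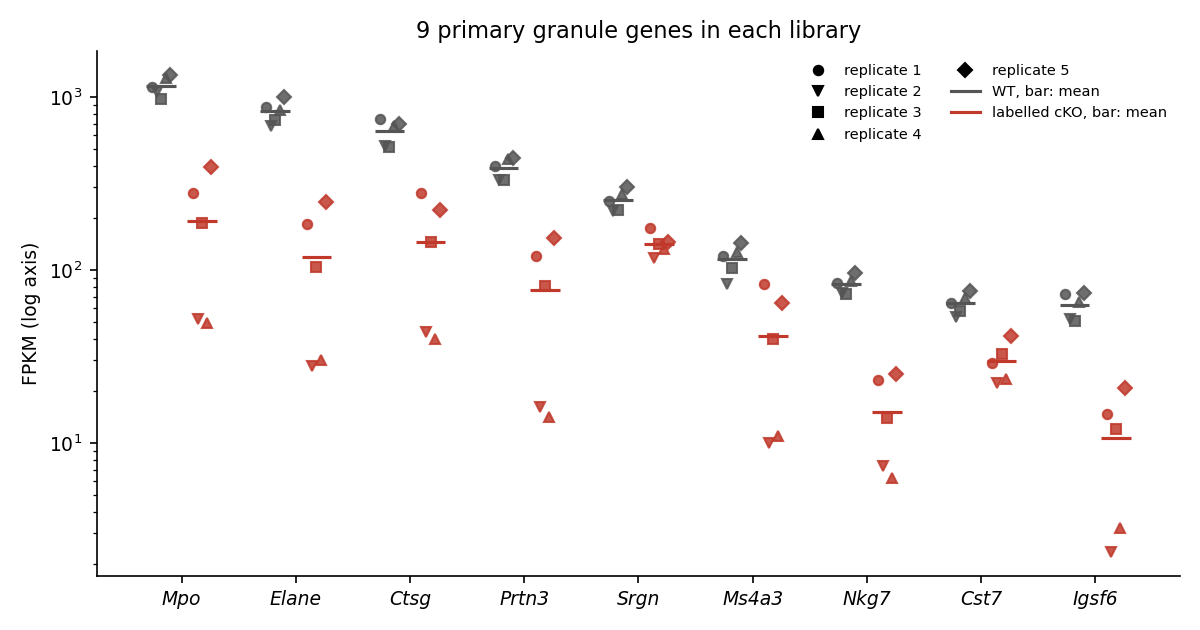
FPKM on a log axis of the 9 genes in each of the 10 libraries, with a symbol for each replicate number, WT in grey, libraries labelled cKO in red and bars at the group means. In every gene the 5 red points lie below the 5 grey ones, and the triangles of libraries 2 and 4 labelled cKO are the lowest.

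Srgn encodes serglycin, the proteoglycan core protein to which the granule proteases bind, and is also used in mast cells, platelets and lymphocytes (ENSMUSG00000020077, chromosome 10 from 62329029 to 62363238, minus strand). Srgn was at 250.58, 217.79, 223.3, 274.58 and 301.34 FPKM in WT and at 173.8, 116.82, 141.47, 131.69 and 144.37 FPKM across the cKO-labelled libraries. The groups did not overlap, yet the libraries labelled cKO were nearly as even as WT, with a coefficient of variation of 14.8% against 13.8%. The log2 fold change was -0.84 (SE 0.118, 95% interval -1.10 to -0.58, limma adjusted p = 2.97e-04), so Srgn passed on the adjusted p but not on the fold change of 2 that a call requires.

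Cst7 encodes cystatin F, an inhibitor of the cathepsin that activates granule proteases (ENSMUSG00000068129, chromosome 2 from 150412284 to 150420864, plus strand). Cst7 was at 64.11, 53.39, 57.99, 69.06 and 76.06 FPKM in WT and at 28.8, 22.12, 32.54, 23.5 and 41.6 FPKM across the cKO-labelled libraries. It was called lower with a log2 fold change of -1.13 (SE 0.166, limma adjusted p = 3.67e-04), close to the limit of -1. Nkg7 encodes a membrane protein of cytotoxic granules that is also found in natural killer and T cells (ENSMUSG00000004612, chromosome 7 from 43086497 to 43087678, plus strand). Nkg7 was at 84.33, 73.7, 72.96, 85.9 and 95.95 FPKM in WT and at 23, 7.38, 13.91, 6.3 and 24.95 FPKM across the cKO-labelled libraries. With a log2 fold change of -2.65 (SE 0.357, limma adjusted p = 2.40e-04), it stood among the enzyme genes rather than beside Cst7.

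Ms4a3 and Igsf6 encode membrane proteins and not granule cargo. Ms4a3, a 4-pass membrane protein used as a marker of granulocyte-monocyte progenitors (ENSMUSG00000024681, chromosome 19 from 11606860 to 11618215, minus strand), was at 119.96, 83, 102.28, 127.6 and 143.07 FPKM in WT. It was at 82.42, 10, 39.69, 10.95 and 64.22 FPKM across the cKO-labelled libraries, so library 1 of these lay 0.58 FPKM below the lowest WT library. The log2 fold change of Ms4a3 was -1.93 with the largest error relative to its size among the 9 genes (SE 0.560, 95% interval -3.16 to -0.69, limma adjusted p = 0.0161). Igsf6, a receptor-like protein of the immunoglobulin superfamily found on myeloid cells (ENSMUSG00000035004, chromosome 7 from 120663275 to 120673795, minus strand), was at 72.39, 51.74, 50.41, 64.97 and 73.58 FPKM in WT. It was at 14.65, 2.35, 12, 3.23 and 20.91 FPKM across the cKO-labelled libraries, a log2 fold change of -2.97 (SE 0.541, limma adjusted p = 0.00123).

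In all, 8 of the 9 genes were called lower with the cKO label, where 16.8% of the 18742 genes tested were called lower and 4.60% higher. On the adjusted p alone it was 9 of 9, against 28.3% of all genes lower, and in 9 of 9 all 5 libraries labelled cKO were below all 5 WT libraries, against 21.6% of all genes. The exact two-sided permutation test gave p = 0.00794 for each of the 9, the smallest that 5 against 5 allow. The median log2 fold change of the 9 genes was -2.65 and that of all genes tested was -0.11. The genes were chosen with results of these libraries known, so these counts describe them and are not independent evidence.

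**Figure D2:**
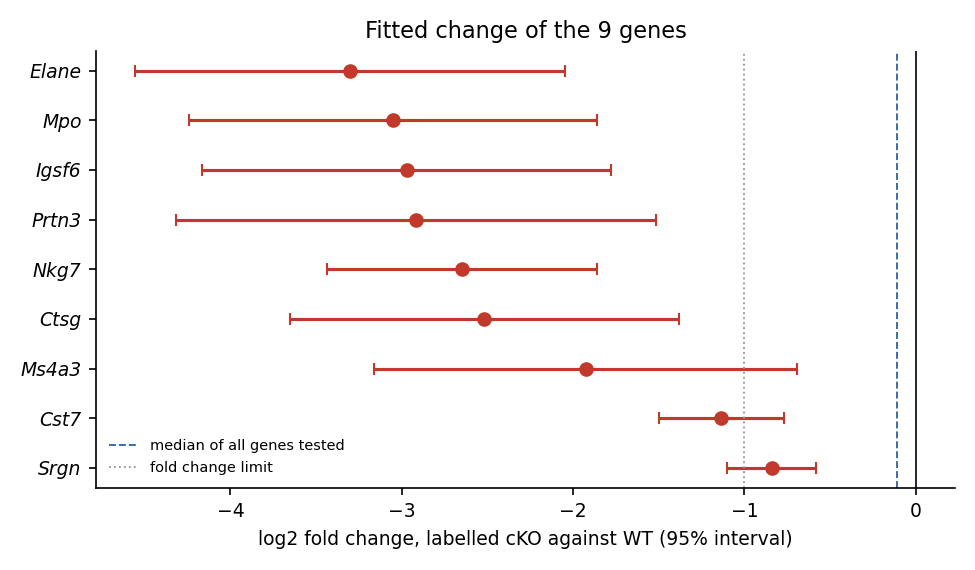
Log2 fold change of each of the 9 genes, labelled cKO against WT, as points with 95% intervals from limma on log2(FPKM + 0.1). The dotted line is the fold change limit, the dashed line the median of all genes tested (-0.11), and every interval lies to the left of it, with Srgn (-0.84) and Cst7 (-1.13) nearest.

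The libraries labelled cKO were uneven in one order that recurred from gene to gene. Libraries 2 and 4 were the 2 lowest in all 9 genes, and the highest was library 5 in 6 genes and library 1 in the other 3 (Ctsg, Ms4a3 and Srgn). The median of the 9 levels, each as a percentage of its WT mean, was 6.91% in library 2, 6.28% in library 4, 20.8% in library 3, 31.1% in library 1 and 35.1% in library 5. The coefficient of variation was larger in the libraries labelled cKO than in WT for 9 of 9 genes. For Mpo it was 77.2% against 13.3%, and for Cst7 26.4% against 13.9%. Depth did not follow this order, since library 2 was the deepest of those labelled cKO and library 1 the shallowest.

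**Figure D3:**
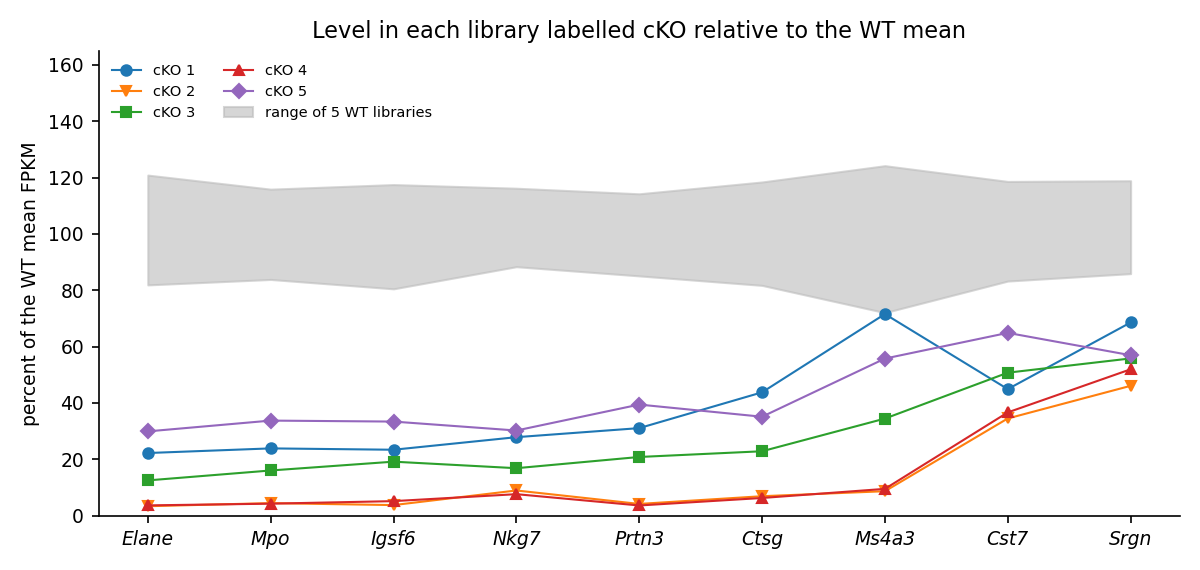
Level of each gene in each library labelled cKO as a percentage of the WT mean FPKM, with the range of the 5 WT libraries as a grey band and genes ordered by the mean over libraries. Libraries 2 and 4 run along the bottom up to Ms4a3 and draw near the other libraries for Cst7 and Srgn, and library 1 comes up to the edge of the WT band for Ms4a3 (71.6%).

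Summed over the 9 genes, WT libraries held 3066 to 4171 FPKM, which was 0.994% to 1.35% of all FPKM in the library. The libraries labelled cKO held 298 to 1310 FPKM, or 0.0945% to 0.416%. Mpo, Elane, Prtn3 and Ctsg made up 83.5% to 84.4% of this sum in WT, where the libraries hardly differed. In the libraries labelled cKO they made up 72.7%, 46.7%, 68.2%, 43.1% and 77.4%.

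The order of the levels, which FPKM allow since they are per length, changed with this. In WT it was Mpo, Elane, Ctsg, Prtn3, Srgn, Ms4a3, Nkg7, Cst7 and Igsf6, and each gene was above the next in all 5 libraries, except that Igsf6 was above Cst7 in WT 1. In ranges over libraries, Mpo with Elane, Elane with Ctsg, Ms4a3 with Nkg7, Nkg7 with Cst7 and Cst7 with Igsf6 overlapped. In the libraries labelled cKO, Srgn was the highest of the 9 genes in libraries 2 and 4 and the fifth in library 5. Mpo was the highest in the other 3. The means there put Ctsg (145 FPKM), Srgn (142 FPKM) and Elane (118 FPKM) within the spread of each other.

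Whether the genes differed in how far they were lowered was examined as the log2 ratio of each gene to Mpo within a library, by exact two-sided permutation tests with Benjamini-Hochberg adjustment over the 8 ratios. The ratio was higher in the libraries labelled cKO for Srgn, by 2.21 (95% interval 1.09 to 3.53), for Cst7, by 1.92 (0.90 to 3.08), and for Ms4a3, by 1.13 (0.77 to 1.51), each at an adjusted p = 0.0212 and with no overlap of the groups. For Ctsg it was higher by 0.53 (0.17 to 0.83, adjusted p = 0.0317). With each library left out in turn, Srgn, Cst7 and Ms4a3 passed in all 10 tests (adjusted p at most 0.0423, exact permutation). Groups that do not overlap stay apart when a library is removed, so these tests could not fail and add no support. Ctsg passed in 2 of the 10 (those without WT library 1 or without library 5 labelled cKO), with an adjusted p up to 0.0635 (exact permutation). In the test of all 10 libraries, Srgn, Cst7 and Ms4a3 were thus lowered less than Mpo. For Ctsg this was less firm, though a test with a library removed cannot reach as small a p-value. The ratio of Elane to Mpo differed by -0.25 (-0.45 to -0.07) and did not pass (adjusted p = 0.0508). Those of Nkg7 (0.40, interval -0.08 to 0.94, adjusted p = 0.169), Prtn3 (0.13, -0.21 to 0.39, adjusted p = 0.354) and Igsf6 (0.08, -0.20 to 0.36, adjusted p = 0.516) did not pass either. All 8 ratios share the values of Mpo. The ratios of Srgn and Cst7 were not even, as Srgn was above Mpo in libraries 2 and 4 (log2 ratios 1.17 and 1.41) and below it in libraries 1, 3 and 5 (-0.67, -0.40 and -1.44).

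**Figure D4:**
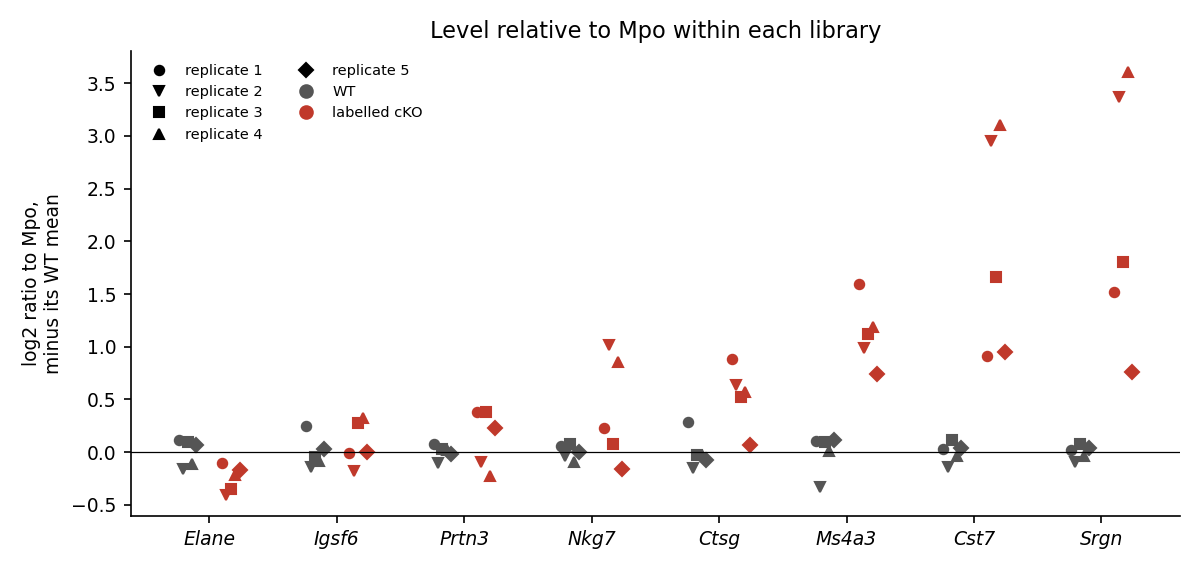
Log2 ratio of each gene to Mpo in each library minus its WT mean, with a symbol for each replicate number, WT in grey and libraries labelled cKO in red. Igsf6 and Prtn3 scatter around 0, Ms4a3 lies above WT in all 5 red points, and Cst7 and Srgn are highest in libraries 2 and 4.

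The 8 calls held with each library left out in turn, but not all of them among libraries alike in Xist. With WT libraries 1 and 2 alone, which like all libraries labelled cKO had Xist under 1 FPKM, 5 of the 9 genes were called lower (12.2% of 18588 genes tested). The log2 fold changes there were -2.98 for Mpo, -3.21 for Elane, -2.83 for Prtn3, -2.52 for Ctsg, -1.74 for Ms4a3, -1.01 for Cst7, -2.96 for Igsf6, -2.59 for Nkg7 and -0.73 for Srgn. Prtn3 (adjusted p = 0.0742), Ctsg (0.0565) and Ms4a3 (0.179) no longer passed in limma with 2 WT libraries. With Xist above 1 FPKM as a covariate and all 10 libraries, 7 genes were called (14.9% of all genes) and Ms4a3 was not (limma adjusted p = 0.113). This is no separate check of the size of the changes. All libraries labelled cKO had low Xist, so the changes in that fit again rest on WT libraries 1 and 2. They were the same as those above for all 9 genes, and the other WT libraries added only to the estimate of the spread.

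Genes listed beside the granule proteases were mixed. The list holds genes that act on the proteases or carry them, and also others such as Clec12a. Of the 23 genes listed, Vamp7 was not found in the table, and Cfd and Bpi were below the filter. Of the 20 tested 9 were lower and 1 was higher by the call, and their median log2 fold change was -0.72. Serpinb1a, an inhibitor of elastase, proteinase 3 and cathepsin G, was at 62.61, 51.24, 56.48, 60.62 and 67.64 FPKM in WT and at 32.69, 5.1, 17.18, 5.29 and 26.51 FPKM across the cKO-labelled libraries (log2 fold change -2.16, limma adjusted p = 0.00446). Rab27a, a GTPase of granule release, went from 37.6 ± 5.70 to 7.18 ± 4.37 FPKM (SD, n = 5 each; log2 fold change -2.62). In both genes libraries 2 and 4 were again the lowest. Clec12a (-3.12) and Fcnb (-3.11), a myeloid lectin receptor and a ficolin of neutrophil granules, were called lower as well, as was Ctsh, a lysosomal cathepsin (-4.04).

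Other genes of this list were not called. Vamp8, a membrane fusion protein of granules, was at 64.1 ± 7.87 against 60.1 ± 1.59 FPKM in WT (SD, n = 5 each; limma adjusted p = 0.396), and calreticulin (Calr), a chaperone of myeloperoxidase, had a log2 fold change of -0.84, under the limit for a call. Ctsc, named here after its values were seen, encodes the cathepsin that removes the activating dipeptide of the granule proteases. Ctsc was at 19.88, 18.81, 15.21, 19.74 and 22.45 FPKM in WT and at 5.97, 20.34, 18.06, 25.93 and 15.14 FPKM across the cKO-labelled libraries. It was highest in libraries 2 and 4, where the proteases were lowest, and the groups overlapped (log2 fold change -0.31, standard error 0.324, limma adjusted p = 0.473). The gene called higher was Ctsl, another cathepsin, from 3.84 ± 0.301 to 9.73 ± 2.94 FPKM (SD, n = 5 each).

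Transcription factors and receptors of myeloid precursors, a list not limited to regulators of the 9 genes, were lower on the whole. Of the 17 genes, 14 were called lower and 0 higher, 17 passed on the adjusted p alone, and the median log2 fold change was -2.12. The largest falls were those of Irf8 (-5.24), Klf4 (-4.84) and Csf1r (-4.63). Cebpa, the factor that opens the granulocyte programme, was at 50.33, 41.59, 31.07, 47.1 and 56.55 FPKM in WT and at 9.18, 2.07, 7.26, 1.6 and 15.27 FPKM across the cKO-labelled libraries. The libraries thus stood in the same order as for Mpo (library 5 highest, then 1, 3, 2 and 4). Csf3r, the receptor of granulocyte colony-stimulating factor, was at 4.32, 0.32, 1.97, 0.39 and 2.77 FPKM across the cKO-labelled libraries and at 18.91 to 26.01 FPKM in WT (log2 fold change -4.01, limma adjusted p = 4.08e-04). Spi1, which encodes PU.1 and is named outside the rule for this list, was lower but even. It was at 9.46, 10.25, 11.93, 14.12 and 14.54 FPKM against 30.34 to 45.96 FPKM in WT, and libraries 2 and 4 were not its 2 lowest. Cbfb (log2 fold change -1.51) was called lower too, while Myb (-0.88) and Kit (-0.86), the stem cell factor receptor, passed on the adjusted p but not on the fold change.

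The genes of the later granules were uneven between libraries. Of 20 genes listed for secondary and tertiary granules, 7 were called lower and 0 higher, and the median log2 fold change was -1.07. This count was 3 with the Xist covariate and 2 in the libraries with Xist under 1 FPKM. The list is not limited to granule cargo, since S100a8 and S100a9 are on it. Of the 20 genes, 13 had a log2 fold change below 0. Those of Ltf (1.39), Camp (0.98) and Lcn2 (0.69) were above 0 and were not called. S100a9, a calcium-binding protein that fills the cytosol of maturing neutrophils, was at 69.23, 63.54, 83.77, 48.33 and 93.11 FPKM in WT and at 894.75, 17.61, 157.68, 7.57 and 44.16 FPKM across the cKO-labelled libraries. Its partner S100a8 was at 442.9 FPKM in library 1 against 2.51 to 79.19 FPKM in the other 4. Ngp, a secondary granule protein, was at 317.58, 8.85, 66.44, 2.41 and 16.04 FPKM against 4.59 to 19.69 FPKM in WT. Ngp is named outside the rule for this list and was not called (log2 fold change 1.43, limma adjusted p = 0.318). In library 1 labelled cKO, 12 of the 20 late genes were above the WT range, 2 (Chil3 and Anxa1) were within it and 6 (Mmp8, Hp, Itgam, Itgb2, Ltb4r1 and Slc11a1) were below it, whereas all 9 primary granule genes were below it. In libraries 2 and 4, none of the late genes was above the WT range, and 14 and 19 of the 20 were below it. The share of all genes outside the WT range in a single library was not computed, so these counts describe the listed genes only. Mpo was 11.6 to 26.6 times S100a9 in WT, and 0.310, 2.94, 1.18, 6.53 and 8.88 times in libraries 1 to 5 labelled cKO, which did not overlap WT. Hp (-2.72), Itgam (-2.47), Ltb4r1 (-2.08) and Slc11a1 (-2.16) were among the 7 called lower, and Chil3, at 17.33 to 320.37 FPKM in WT, was not called (limma adjusted p = 0.154). S100a9 itself had a log2 fold change of -0.20 (limma adjusted p = 0.897), which was 0.25 without library 2 labelled cKO, 0.55 without library 4 and -1.16 without library 1.

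**Figure D5:**
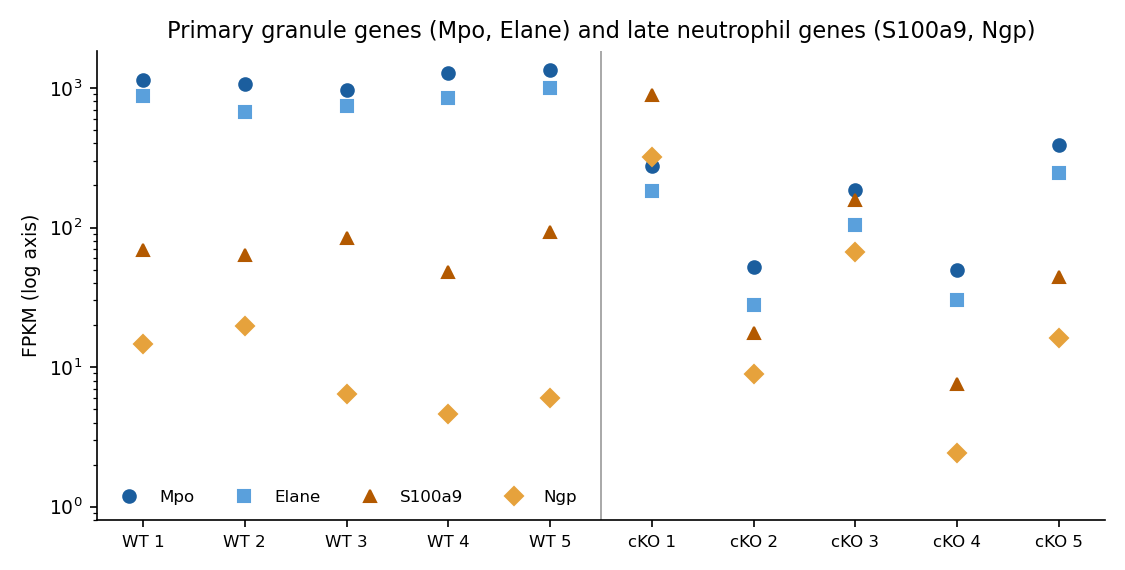
FPKM on a log axis of Mpo and Elane (blue) and of the late neutrophil genes S100a9 and Ngp (orange) in each library. S100a9 and Ngp do not stand for the late genes as a class, of which 7 of 20 were called lower and are not shown. In all 5 WT libraries the blue points lie above the orange ones, and in library 1 labelled cKO S100a9 (894.75 FPKM) and Ngp (317.58 FPKM) lie above Mpo (277.33 FPKM).

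Markers of other cell types moved with the 9 genes. In bulk libraries, fewer cells of a type and less RNA per cell cannot be told apart. All 13 monocyte and dendritic cell genes tested were called lower (median log2 fold change -4.07), with a summed level of 934.7 to 1641 FPKM in WT and 9.8 to 294.6 FPKM across the cKO-labelled libraries. In the latter the sum was 72.8, 23.6, 188, 9.8 and 295 FPKM in libraries 1 to 5, so libraries 2 and 4 were again the lowest, and Siglech was at 0 in some library. Lyz2, the lysozyme of monocytes and neutrophils, was at 34.04, 5.75, 72.82, 2.09 and 124.82 FPKM there and at 460.35 to 918.13 FPKM in WT. Of 11 mast cell and basophil genes, 6 were called lower and 2 higher (median -1.47), with sums of 706.6 to 1399 FPKM in WT and 116 to 611 FPKM across the cKO-labelled libraries. The 2 higher ones, Mcpt4 and Tpsb2, were near 0, and Mcpt4 was listed at 0 in all 5 WT libraries. All 8 megakaryocyte genes were called lower (median -2.24), with sums of 279 to 1274 FPKM in WT and 85.5 to 187 FPKM across the cKO-labelled libraries. Erythroid genes went the other way, with 6 of 12 called higher and 0 lower (median 1.16) and sums of 1694 to 2920 FPKM in WT and 4688 to 7826 FPKM across the cKO-labelled libraries. Among the latter, that sum was highest in library 4, then library 2, and lowest in library 5. The part of such shifts in the result for the 9 genes was not tested.

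Since Nkg7, Cst7 and Srgn are also genes of cytotoxic lymphocytes, these were looked at on their own. Of 14 marker genes, 9 were called lower and 0 higher (median log2 fold change -1.52). Their sum was 13.2 to 21.3 FPKM in WT and 2.46 to 9.09 FPKM across the cKO-labelled libraries, and Ncr1, Klrb1c, Klrd1, Cd8a, Eomes, Tbx21 and Klrk1 were at 0 in some library. The sum of all 14 markers was below Nkg7 alone in every library of both groups. Such a sum does not tell how much of Nkg7 came from these cells, which was not tested. Gzmb, a granzyme, was at 1.34 ± 0.461 against 1.72 ± 0.578 FPKM in WT (SD, n = 5 each; limma adjusted p = 0.367).

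Genes next to the 9 on the chromosome gave a local view. Of 32 protein-coding neighbours, 23 were tested, 7 of them were called lower and 1 higher, and their median log2 fold change was -0.19. Between Ptbp1 and Med16 on chromosome 10, Plppr3, Prtn3 and Elane were called lower, and Cfd was below the filter. Ptbp1, which encodes a splicing factor, was at 142 ± 4.62 FPKM against 137 ± 8.21 FPKM in WT, and Med16, a Mediator subunit, was at 11.7 ± 0.369 against 10.6 ± 0.568 FPKM (SD, n = 5 each), and neither passed (adjusted p = 0.460 and 0.103, limma). Plppr3, which overlaps Prtn3, had a log2 fold change of -2.52. Igsf6 lies within Mettl9 on the other strand, and Mettl9 was at 15.8 ± 0.559 against 13.9 ± 0.793 FPKM (SD, n = 5 each), so the host gene was not lower. Beside Ctsg, the basophil protease gene Mcpt8 was called lower (-2.31), and beside Mpo, Lpo, which encodes lactoperoxidase, was called lower at 0.064 ± 0.0754 against 0.664 ± 0.178 FPKM (SD, n = 5 each). The others called lower were Ms4a6d (-2.86), Ms4a2 (-2.02) and Oosp1 (-2.55) beside Ms4a3 and Cldnd2 (-2.82) beside Nkg7. Ms4a2 and Mcpt8 are also on the mast cell and basophil list.

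The 10 genes most like the enzymes were found by Pearson correlation of log2 levels with the mean of Mpo, Elane, Prtn3 and Ctsg over the 10 libraries, among 12344 genes whose mean reached 1 FPKM. The libraries fall into the 2 labelled groups, so r mostly reflects them, and it is given as a description. Prss57, which encodes another serine protease of primary granules, had the highest r (0.999). Prss57 was at 15.05, 12.94, 11.99, 14.98 and 15.83 FPKM in WT and at 4.55, 1.02, 3.2, 0.9 and 5.46 FPKM across the cKO-labelled libraries. C3 (complement component), Gstm1 (a glutathione transferase), Anxa3 (an annexin), Dram1, Pstpip1, Pxylp1, Wls, Aatk and Lbp followed, with r of 0.995 to 0.997 and log2 fold changes from -4.0 (C3) to -2.45 (Aatk). Of the 5 genes among the 9 that do not enter that mean, Igsf6 had r = 0.995, Nkg7 0.987, Ms4a3 0.973, Cst7 0.953 and Srgn 0.919.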

How the data were processed

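RNA-seq of Lin- bone marrow cells gave 5 WT and 5 cKO libraries. Before alignment of paired reads to GRCm39 with HISAT2, the authors took out adapters, primers and reads with a quality below 20. The deposited values are FPKM with 2 decimals, 1 value for each gene in each library. The submitters' processing notes name cutadapt 1.9.1, HISAT2 2.0.1 and HTSeq 0.6.1. The annotation, gene lengths and use of strand are not given in the sources used here. The labels do not tie libraries to mice. The study's general methods count replicates as individual mice unless another unit is given, and p-values here measure the spread between libraries on that basis.

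FPKM are not counts, so the authors' DESeq2 was not run. The test was limma 3.58.1 in R 4.3.3 (lmFit, eBayes with a trend, two-sided) on log2(FPKM + 0.1) for the 18742 genes whose mean reached 0.1 FPKM, with Benjamini-Hochberg adjustment over all of them. A call needed both an adjusted p below 0.05 and a change of 2-fold or more. The pseudocount understates the change of low genes. Depth came from low values of genes with 1 transcript, of which 95.9% to 96.3% were whole within 0.2 of a fragment. Such steps cover counting error only, and 3 fragments in a gene of 1000 bp are worth 0.160 to 0.217 FPKM. No pair of libraries agreed within sampling noise. Permutation tests were run in scipy 1.17.1 under Python 3.11.15, and intervals of the ratios to Mpo invert that test.

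The 9 genes and all lists were chosen with earlier results of these data known. Named from each list were up to 4 genes of highest mean and up to 4 called genes of largest change, plus 2 protein-coding neighbours on each side, the 10 most alike genes and Dhx9. Not every such gene is given, and some others, such as Ctsc, Spi1 and Ngp, are named outside this rule. Coordinates and sequences come from the GENCODE annotation and genome of build GRCm39. Alternatives were pseudocounts of 0.01 and 1, no filter or a minimum mean of 1 FPKM, 3 scalings, no trend, array weights, the replicate number as a block, Xist as a covariate, adjusted p alone and each library left out. The fit to libraries with Xist under 1 FPKM was added after seeing the data. On simulated data for the comparison of cKO with WT over 17965 genes, limma called 146 of the 190 genes given a log2 change of 2 (76.8%), none in the wrong direction (0), and 1 unchanged gene.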

Additional observations from a re-analysis of the deposited data

Results flagged for a closer look

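Dixon's test at the 95% level looked for a library far from the other 4 of its label in 202 sets of 5 libraries. The sets were those of the genes named by the rule and of the lists. Genes named outside the rule, such as Ngp, were not examined. The test picked out 14 sets, where chance gives about 10.1, and none of them was of the 9 primary granule genes.

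In library 1 labelled cKO, 5 of the genes examined stood apart. S100a9 was at 894.75 FPKM against 7.57 to 157.68 FPKM in the other 4, and S100a8 at 442.9 against 2.51 to 79.19 FPKM. Vamp8, of the granule fusion machinery, was at 78.07 against 59.43 to 61.59 FPKM. Slc4a1, the anion exchanger of red cells, was at 236.03 against 125.43 to 157.04 FPKM, and Supt4a, a neighbour of Mpo, at 87.9 against 49.59 to 58.87 FPKM.

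In WT library 3, the basophil genes Prss34 (328.66 against 671.4 FPKM or more) and Mcpt8 (204.94 against 338.19 FPKM or more) and the RUNX1 partner Cbfb (41.04 against 54.95 FPKM or more) were low. Tspoap1, another neighbour of Mpo, was at 8.24 FPKM in WT library 1 against 4.21 to 4.84 FPKM. Slc11a1 was at 2.28 FPKM in WT library 5 against 1.26 to 1.53 FPKM. The mean log2 level of the cytotoxic lymphocyte list was -0.49 in WT library 2 against -0.16 to -0.04. Among the other libraries labelled cKO, Hbb-bs was at 563.3 FPKM in number 5 against 1066 FPKM or more, Gp6 at 0.86 FPKM in number 5 against 0.32 to 0.42 FPKM, and Ncr1 at 0.28 FPKM in number 3 against 0.08 FPKM or less. Hbb-bs has a near-identical copy, Hbb-bt, so its reads are uncertain.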

How the results depend on the processing

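For the 9 genes, 198 alternative values were computed, of which 194 kept direction and side of the threshold, 4 no longer passed and 0 reversed. With libraries with Xist under 1 FPKM only, 5 of the 9 were called. All genes called lower numbered 1486 with a pseudocount of 1, 1827 with a minimum mean of 1 FPKM and 5300 on adjusted p alone, against 3153. Genes called higher numbered 356, 462 and 3138 under the same settings, 1581 with quantile normalization (2245 lower) and 536 with low Xist, against 862. Quantile normalization moved the median of all genes from -0.11 to 0.10. The 8 lists beside the 9 genes had 15 genes higher on adjusted p alone against 9. Leaving out each library in turn kept the 8 calls, with Ms4a3 the least firm (adjusted p up to 0.0381, limma). It gave 3 to 5 ratios to Mpo that passed. Those of Srgn, Cst7 and Ms4a3 passed in every test, which was fixed in advance since their groups do not overlap. Reversed were Vamp8 (-0.019), Gzmb (0.13), Supt4a (-0.01) and Ptbp1 (-0.039) with quantile normalization, Oosp2 (-0.22) with array weights, and with a library left out S100a9 (-1.16 to 0.55) and Supt4a (-0.055 to 0.15). None of these was called. Causes were not tested. Deviations of same-numbered libraries were weakly correlated (r = 0.117, 0.0258, -0.0103, -0.00304 and 0.0929 for numbers 1 to 5). Libraries of different number gave r of -0.0974 to 0.0667, so numbers 1 and 5 had the highest values. Whether the numbers pair libraries is therefore not settled, and the main tests treat them as unpaired. With the replicate block, limma called 8 of the 9 genes, 3107 genes lower and 857 higher, while the paired permutation tests passed for 0 of 9 genes and 0 of 8 ratios, since 5 pairs cannot go below p = 0.0625. Depth limits none of the 9 genes, whose lowest value is 2.35 FPKM.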
